A study of Mus musculus with 107 samples.

Results

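The genes described here are 9 genes of the complement system, out of 27179 genes counted in every sample: C1qa, C1qb, C1qc, C1ra, C1s1, C4b, C3, Cfb and Serping1. They were named as a list and found by their mouse Entrez ids, and each was read in every library of 23 groups. Levels are given as CPM, the reads of a gene scaled to the total of reads assigned to genes in that library. The list sets C1qa, C1qb and C1qc, which myeloid cells of the host are known to make, beside members that were detected in cultures without host cells.

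The study followed mouse embryonic stem cells (ESC) and the neural progenitor cells (NPC) made from them in culture, after differentiation and after grafting into the spinal cord. Each library holds RNA pulled down with HA-tagged ribosomes (RiboTag), so that reads come mainly from the cells that carry the tag. Where tissue is pulled down, RNA of untagged cells can come along.

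All samples were labelled C57BL/6 and RiboTag positive. The ESC came from 1 female line whose RiboTag allele Cre had already recombined, so all cultures and grafts share that line and carry the tag in every cell type that they form. NPC were collected at passages 5, 15 and 30 in EGF and FGF at 100 ng/ml, with 2 further passage 15 groups named D2 and D3, in groups of 4 libraries (6 for D2). In the paper D stands for derivation, and its NPC derivations came from different ESC cultures. The labels name no reference among these NPC groups, and NPC P15 was used as the reference. The labels also do not say which derivation the differentiated cultures and grafts came from. Comparisons with NPC P15 may therefore hold differences between derivations as well. Spontaneous differentiation (SPONT) lowered both factors to 1 ng/ml for 4 days; the other differentiated groups added to it 100 ng/ml CNTF, 100 ng/ml IGF-1, fetal bovine serum (FBS) at 1%, 5%, 10% or 20%, or CNTF with 5% FBS, with 4 libraries each. A further 3 groups of 5 libraries held NPC passed through a pipette in a hydrogel (DCH), after 4 h in it, or in media. The tissue groups were host astrocytes of healthy spinal cord (9 libraries) and at 14 days after crush spinal cord injury (SCI, 5 libraries), tagged through a Gfap-Cre line, which limits the tag to cells in which that promoter has been active. Grafted NPC were recovered at 14 d from SCI, uninjured cord and double crush SCI, and at 5 d from SCI (5 libraries each). By the paper's methods grafts were injected in a hydrogel. Grafts into SCI were placed 2 days after injury. The sources of the study differ on whether these days count from injury or from grafting. Host mice were adults, and the labels give no age. Each graft group came from 5 mice; for the other groups the labels do not say whether replicates came from separate cultures or animals, so each p below measures the spread between samples.

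Total counts ran from 30473157 to 147764968 in the 96 libraries whose count headers name 2 read data sets, with group medians of 58497510 to 111741779. The 11 libraries of NPC P15 D2 and of grafts at 5 d, whose headers name 1 read data set, held 12286240 to 18085106. The paper describes paired reads and does not set these 11 apart. A gene with no reads could therefore have gone unseen below 3 counts in a library, a floor that covers counting error only. Among genes with low counts, 53.1% to 73.8% had an even count in the 96 libraries, against 43.1% to 48.5% in the 11. Counts in the 96 may thus not be independent, so the floor may be too low there and folds bounded by it too large. Totals of the 96 and of the 11 may not share a scale. Markers of the labelled cells were high in ESC, NPC P15, healthy host astrocytes and grafts in SCI at 14 d. Astrocyte sums of the other tissue groups are not given here. The 4 pluripotency genes summed to 1502 CPM in ESC and to at most 2.27 in any other group, the 5 progenitor genes summed to 2399 in NPC P15, and the 8 astrocyte genes reached 39642 in healthy host astrocytes and 18574 in grafts in SCI at 14 d. Tissue also held markers of other cells: the 7 oligodendroglial genes, led by Mbp, summed to 8321 CPM in healthy and 28875 in injured host astrocytes, and the 4 neuronal genes to 1599 CPM in uninjured grafts, on average. Some libraries stood apart. Replicate 4 of the grafts at 5 d held 19751 CPM of 18 myeloid markers, against at most 1856 in the other 4 libraries, and replicate 2 of host astrocytes after SCI held 2892, against at most 960.0. Replicate 5 of grafts in SCI at 14 d held 3090.2 CPM of the myeloid markers, against at most 1332, and 3871 CPM of 6 fibroblast markers, against at most 1676. For the myeloid markers replicate 5 of uninjured grafts (2246 CPM, others at most 994) and replicate 4 of double crush grafts (15077, others at most 7472) were also well above the rest, as was replicate 1 of double crush grafts for the fibroblast markers (27569, others at most 11621). Replicate 5 of double crush grafts was the lowest of its group for both marker lists and for every member except C3. Over all genes it differed from each of the others by more than they differed among themselves.

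Complement is a cascade of blood and tissue proteins that marks surfaces for removal. In the classical route C1q binds a target, its partner proteases C1r and C1s cut C4, and the enzyme that follows cuts C3, whose fragments coat the target; factor B amplifies C3 cleavage in the alternative route, and C1 inhibitor shuts off C1r and C1s. In the nervous system microglia are a main source of C1q, reactive astrocytes make C3 and C4, and complement tags synapses and debris for phagocytes.

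Members were tested with edgeR on all genes that passed its filter on low counts, and called at an adjusted p below 0.01. In cultures 8 of the 9 members passed the filter and C1qb did not. In NPC P15 against ESC 2 of 8 were called, C1s1 and Serping1, both lower, where 67.2% of 15350 genes were called; the median log2 fold change was 0.01 over the tested members and -0.10 over all tested genes. SPONT against NPC P15 called 4 of 8 beside 57.2% of 14852 genes, with C1s1, C4b and C3 higher and Cfb lower. In both of these comparisons the share of members was below that of all genes. CNTF against SPONT called 5 of 8, with C1ra, C1s1, C4b, C3 and Serping1 higher, beside 19.9% of 14879 genes (2961 genes; 2027 to 6049 when 1 library was left out); the median log2 fold change was 1.16 over the tested members and -0.01 over all tested genes. IGF-1 against SPONT called 0 of 8 with edgeR beside 6.55% of 14941 genes (979; 0 to 5724 when 1 library was left out), with 2 members at an unadjusted p below 0.05 and 1 member, C1ra, called with DESeq2. Without SPONT replicate 2, C1ra (log2 fold change 1.12, adjusted p = 0.00102) and C3 (0.68, adjusted p = 0.00706) passed in this comparison.

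Serum gave calls at each step. With 1% FBS 4 of 8 members were called against SPONT, C1ra, C1s1, C3 and Serping1, all higher, beside 8.78% of 14938 genes (1312; 628 to 1975 when 1 library was left out); the median log2 fold change was 1.34 over the tested members and 0.00 over all tested genes. With 5% against 1% FBS 5 of 8 were called, the same 4 and Cfb, all higher, beside 31.1% of 15226 genes. With 20% against 5% FBS 4 of 8 were called, C1ra, C1s1 and Serping1 higher and C4b lower, beside 26.6% of 15339 genes. CNTF with 5% FBS against 5% FBS called 2 of 8, C4b and Serping1, both higher, beside 23.3% of 15272 genes (3564; 1968 to 3908 when 1 library was left out), a share near that of all genes. The same culture against CNTF alone called 6 of 8 beside 72.8% of 15203 genes, again near the share of all genes. The interaction of CNTF and 5% FBS, which tests whether CNTF changed a gene by another amount when serum was present, called 3 of 8 members, C4b, C3 and Serping1, all lower, beside 22.9% of 15726 genes (3600; 2702 to 6049 when 1 library was left out).

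In tissue all 9 members passed the filter. Host astrocytes after SCI against healthy called 8 of 9, all higher and without Cfb, beside 41.1% of 16886 genes; the median log2 fold change was 3.71 over the tested members and 0.02 over all tested genes. Grafts in SCI at 14 d against grafts in uninjured cord called 4 of 9, C1ra, C1s1, C4b and C3, all higher, beside 4.64% of 15813 genes (734; 232 to 1576 when 1 library was left out); the median log2 fold change was 0.93 over the tested members and -0.05 over all tested genes. Grafts in double crush against grafts in SCI at 14 d called 0 of 9 with edgeR beside 1.83% of 15790 genes (289; 0 to 1061 when 1 library was left out), with 6 at an unadjusted p below 0.05 and 3 called with DESeq2 (C1ra, Cfb and Serping1). Grafts in SCI at 14 d against 5 d called 5 of 9, C1ra, C1s1, C4b, C3 and Serping1, all higher, beside 5.3% of 15314 genes (811, or 350 to 1191 when 1 library was left out). Here day cannot be told apart from the number of read data sets. Grafts in SCI at 14 d against NPC P15 called 8 of 9, all higher and without Cfb, beside 52% of 15660 genes. Against host astrocytes after SCI the same grafts called 4 of 9, C1ra, C1s1, C3 and Serping1, all higher, beside 14.6% of 16575 genes. The interaction of injury and source tests whether the difference between injured and uninjured cord was another one in grafts than in host astrocytes. Its baselines were unlike: injected cord for grafts and healthy cord for host astrocytes. It called 5 of 9, C1qa, C1qb, C1qc, C1ra and Serping1, all lower, beside 16.8% of 17536 genes. In these bulk samples fewer cells of a type and less RNA per cell cannot be told apart.

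**Figure D1:**
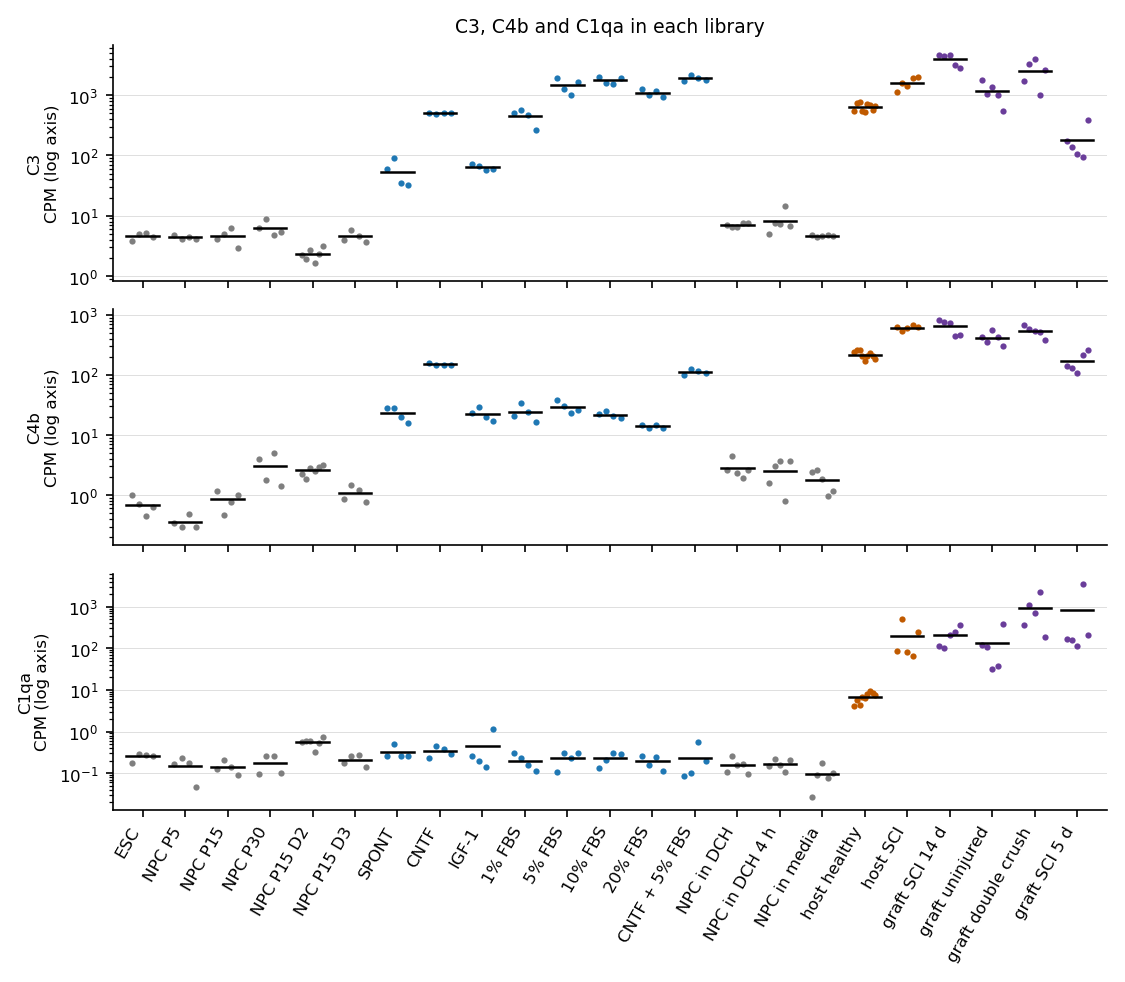
Each point is 1 library, in CPM on a log axis, for C3, C4b and C1qa in 23 groups; bars mark group means (gray, ESC and NPC; blue, differentiated cultures; orange, host astrocytes; purple, grafts). C3 and C4b were high in differentiated cultures and tissue, while C1qa was at or below 1.17 CPM in all 73 culture libraries and at or above 4.14 CPM in all 34 tissue libraries.

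C1qa, C1qb and C1qc encode the 3 chains of C1q, the recognition part of the first component. In the 73 culture libraries C1qa lay between 0.0269 and 1.17 CPM, C1qc between 0.0249 and 1.10 CPM and C1qb between 0 and 0.346 CPM, and C1qb was at or under the floor of 3 counts in 49 of them. C1qa reached 1 CPM in 1 library, replicate 4 of IGF-1, and C1qc in 1, replicate 2 of 1% FBS. With NPC P15 as the reference no culture comparison called a C1q chain while all its libraries were kept. With NPC P15 D2 (1 read data set) as the reference C1qc passed in SPONT (log2 fold change -1.84, adjusted p = 0.00207, and 0.44 with NPC P15). Without replicate 3 of CNTF with 5% FBS, C1qa passed against CNTF alone (log2 fold change -1.43, adjusted p = 0.00724).

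Healthy host astrocytes held C1qa at 4.14 CPM at the lowest, 6.71 at the median and 9.18 at the highest of 9 samples, all above every culture library. After SCI the 5 host libraries held 88.1, 503, 83.4, 65.4 and 242 CPM, and no library of one group reached the other. C1qa rose 26.01-fold (log2 fold change 4.70 ± 0.41 (SE), adjusted p = 4.72e-08). C1qb rose by 4.67 and C1qc by 5.05 on the log2 scale in the same comparison (adjusted p = 8.55e-08 and 3.52e-08), in 5 of 5 injured samples. Replicate 2 was the highest for each chain; without it the values were 4.02 for C1qa, 3.72 for C1qb and 4.22 for C1qc, and each was still called.

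Grafts in uninjured cord held C1qa at 118.96, 104.8, 31.04, 38.05 and 381 CPM and grafts in SCI at 14 d at 116, 101.2, 213, 248 and 366 CPM. The ranges overlapped, and the uninjured grafts already stood above every healthy host library. None of the 3 chains passed the test between these grafts (0.41 to 1.02 on the log2 scale, adjusted p = 0.32 for C1qc, 0.367 for C1qa and 0.739 for C1qb), and without replicate 5 of grafts in SCI the C1qb value turned to -0.41. Without replicate 5 of uninjured grafts the values were 1.86 for C1qa, 1.10 for C1qb and 1.91 for C1qc, still without a call. The interaction of injury and source was -3.81 for C1qa, -4.30 for C1qb and -4.08 for C1qc (adjusted p = 0.000563, 0.000231 and 0.000343). Without replicate 5 of the uninjured grafts these values were -2.86, -3.59 and -3.17, without replicate 2 of injured host astrocytes -3.14, -3.35 and -3.24, and for C1qb without replicate 5 of grafts in SCI -5.11, and all were still called.

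Double crush grafts held C1qa at 355, 1083, 688, 2261 and 188.2 CPM. Replicates 2, 3 and 4 were above every SCI graft and replicates 1 and 5 lay within their range, and the chains differed by 1.90 to 2.27 on the log2 scale without passing (adjusted p from 0.0304 to 0.0442). With all 23 groups in 1 fit all 3 passed (adjusted p from 0.000952 to 0.00268). Without replicate 5 of grafts in SCI, C1qb (3.08, adjusted p = 0.00187) and C1qc (2.33, adjusted p = 0.0078) passed, while without double crush replicate 4 the values were 1.26 for C1qa, 1.71 for C1qb and 1.29 for C1qc. At 5 d the grafts held 166, 157, 116, 3422 and 209 CPM, with replicate 4 far above the rest. At 14 d against 5 d the values were -1.79 for C1qa, -2.05 for C1qb and -1.54 for C1qc, none called, and without replicate 4 they turned to 0.63, 0.46 and 0.79. With all 23 groups in 1 fit C1qa (-1.80, adjusted p = 0.00435) and C1qb (-2.06, adjusted p = 0.00299) passed.

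Against NPC P15 (C1qa at 0.125, 0.207, 0.139 and 0.0899 CPM), grafts in SCI held 1879-fold more C1qa (log2 fold change 10.88 ± 0.65 (SE), adjusted p = 6.41e-08) and 1483-fold more C1qc (log2 fold change 10.53, adjusted p = 4.5e-08), in 5 of 5 samples. For C1qb, which NPC P15 held at 0.0375, 0.0387, 0 and 0.112 CPM or at most 5 reads a library, the log2 fold change was 9.75 (adjusted p = 3.62e-06). Its size moved with single libraries, to 10.36 without NPC P15 replicate 4 and to 8.93 without replicate 5 of the grafts, and the call held. Per length, as CPM per kilobase of exon (FPKM), C1qa was above C1qb in all 34 tissue libraries, with a ratio of 3.26 to 18.7 and a median of 6.27. The FPKM ratio of C1qa to C1qc ran from 1.56 to 4.21 with a median of 2.52, so C1qa was the highest of the 3 chains in each of these libraries. By median C1qa level the groups ran from double crush grafts (688 CPM) through grafts in SCI at 14 d (213), at 5 d (166), in uninjured cord (104.8) and injured host astrocytes (88.1), each overlapping with the next, to healthy host astrocytes (6.71) and the cultures, which did not overlap with their neighbours. By mean, grafts at 5 d (814 ± 1458 CPM (SD, n = 5)) came above SCI at 14 d (209 ± 108 CPM (SD, n = 5)) and injured host astrocytes (196 ± 185 CPM (SD, n = 5)) above uninjured grafts (134.7 ± 143 CPM (SD, n = 5)), with replicate 4 at 5 d and replicate 2 of the injured host far above their groups.

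Within tissue, myeloid markers moved with C1q. The list held 18 genes, all counted. In the 17 culture groups the mean summed level ran from 27.8 CPM in NPC P5 to 205 in ESC, with Laptm5 the most abundant in ESC. There Ptprc, Aif1, Adgre1, Cx3cr1, Cd53 and Tyrobp had means of at most 0.214 CPM in each group, with no reads of Aif1 in ESC, NPC P15 or either DCH group, of Cd53 in NPC P30, of Spi1 in CNTF and of Adgre1 in NPC in media. Other markers on the list were higher in some cultures, with means of 23.7 CPM for Cd14 in CNTF, 38.3 for Cd68 and 1.13 for Spi1 in ESC, 6.58 for Tmem119 in 20% FBS and 1.17 for P2ry12 in NPC P30. In healthy host astrocytes the sum was 60.5 CPM at the lowest, 71.5 at the median and 91.5 at the highest of 9 samples, and 10 of 18 markers had a mean of at least 1 CPM. All libraries of ESC and of cultures with 5% FBS or more held more of the sum than any of these 9 and less C1qa. The sum was 586, 2892, 459, 446 and 960.0 CPM in host astrocytes after SCI, with Lyz2 the most abundant, and in each of the 5 tissue groups other than healthy host astrocytes 18 of 18 markers had a mean of at least 1 CPM and none was at 0.

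In the grafts the summed level of the 18 markers was 994, 868, 345, 488 and 2246 CPM in uninjured cord and 1041, 877, 1332, 1278 and 3090.2 CPM in SCI at 14 d. It was 2702, 7472, 4962, 15077 and 1531 CPM in double crush and 1111, 1856, 1261, 19751 and 1522 CPM at 5 d, and Lyz2 was the most abundant in all 4 graft groups. Over the 34 tissue libraries, which share groups and depth, Pearson r between log2 CPM and the log2 sum was 0.99 for each of C1qa, C1qb and C1qc, 0.86 for C1ra, 0.85 for C1s1 and for Serping1, 0.45 for Cfb, 0.37 for C4b and 0.14 for C3. Over the 20 grafts alone it was 0.98 for C1qa, 0.97 for C1qb and 0.98 for C1qc, but 0.32 for Serping1, 0.30 for C1ra, 0.28 for C1s1 and for Cfb, -0.04 for C4b and -0.15 for C3. The part of myeloid cells in the C1q levels of tissue was not tested.

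**Figure D2:**
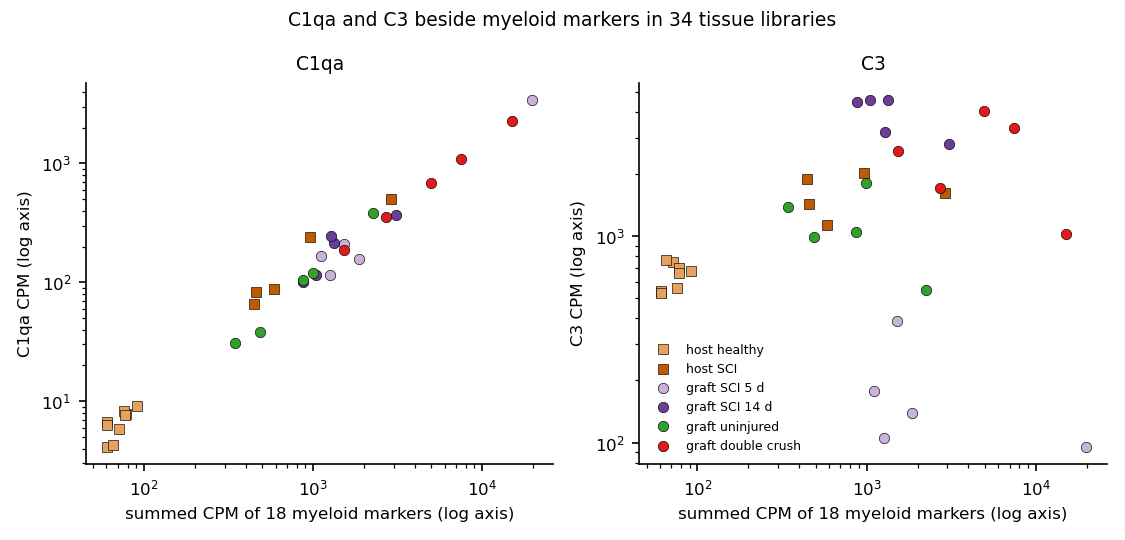
Each point is 1 of 34 tissue libraries; the horizontal axis is the summed CPM of 18 myeloid markers and the vertical axis the CPM of C1qa or C3, all on log axes (squares, host astrocytes; circles, grafts). C1qa followed the sum (r = 0.99) and C3 did not (r = 0.14), with grafts at 5 d low in C3.

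C1ra and C1s1 encode C1r and C1s, the proteases that sit with C1q and cut C4. Both have near-identical neighbours, C1rb and C1s2, so reads shared with these are uncertain. ESC held C1s1 at 7.23, 6.57, 4.36 and 4.40 CPM and NPC P15 at 0.325, 0.116, 0.0620 and 0.472 CPM, with no overlap, and C1s1 fell by 4.64 on the log2 scale (adjusted p = 4.3e-05) in 4 of 4 samples. C1ra was low in ESC, at 0.101, 0.657, 0.196 and 0.0894 CPM, and 1.58, 2.53, 1.18 and 0.495 CPM in NPC P15 (log2 fold change 2.38, adjusted p = 0.0265), and it passed without ESC replicate 2 (3.39, adjusted p = 0.00571) and with all 23 groups in 1 fit (2.42, adjusted p = 9.46e-07).

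SPONT held C1s1 at 1.33, 1.59, 0.929 and 1.02 CPM, above all NPC P15 libraries (log2 fold change 2.46 ± 0.66 (SE), adjusted p = 0.00664). Without NPC P15 replicate 2 or without any 1 SPONT library this call was lost (adjusted p from 0.014 to 0.0227), as it was with NPC P15 D2 as the reference (0.75, adjusted p = 0.0377). C1ra in SPONT differed from NPC P15 by -0.71 (adjusted p = 0.26) and passed with NPC P15 D3 as the reference (-1.30, adjusted p = 0.000689). CNTF held C1s1 at 2.27, 2.73, 1.97 and 2.20 CPM and C1ra at 2.70, 2.16, 1.61 and 1.80 CPM, where SPONT held C1ra at 0.651, 1.24, 0.663 and 0.664 CPM; no library overlapped. C1ra rose by 1.38 (adjusted p = 0.00307) and C1s1 by 0.93 (adjusted p = 0.00678) on the log2 scale. The C1ra call was lost without SPONT replicate 3 or 4 or CNTF replicate 1 or 2 (adjusted p from 0.0104 to 0.013), and the C1s1 call without SPONT replicate 1, 3 or 4 or any CNTF library (0.0104 to 0.024). A single fit of all 23 groups lost both (adjusted p = 0.0129 for C1ra and 0.134 for C1s1).

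Serum raised both proteases step by step. C1ra stood at 3.25, 3.15, 3.25 and 3.01 CPM with 1% FBS, 14.4, 9.36, 13.9 and 22.4 with 5%, 37.4, 26.9, 35.2 and 46.0 with 10% and 41.4, 43.03, 43.9 and 43.3 with 20%. C1s1 stood at 5.14, 3.82, 3.11 and 3.27 CPM with 1% FBS, 10.6, 11.0, 12.02 and 18.3 with 5%, 21.01, 19.6, 27.8 and 31.3 with 10% and 30.3, 31.1, 32.7 and 38.7 with 20%. At the 3 tested steps no ranges overlapped for either gene. C1ra rose by 1.99, 2.25 and 1.47 on the log2 scale from SPONT to 1%, from 1% to 5% and from 5% to 20% FBS (adjusted p = 0.000324, 4.44e-05 and 0.000314). C1s1 rose by 1.67, 1.76 and 1.31 at the same steps (adjusted p = 0.000799, 0.000143 and 0.000192), in 4 of 4 samples each time.

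Together, CNTF and 5% FBS gave C1ra at 23.3, 25.99, 27.4 and 26.4 CPM and C1s1 at 19.1, 22.9, 24.01 and 21.4 CPM. Against CNTF alone these were log2 differences of 3.51 and 3.13 (adjusted p = 1.46e-14 and 1.03e-14), with all 4 samples above all 4. Against 5% FBS the differences of 0.70 and 0.68 did not pass (adjusted p = 0.0243 and 0.0103); without 5% FBS replicate 4 both passed, at 0.98 (adjusted p = 0.000749) and 0.91 (adjusted p = 0.000162). Both passed with DESeq2 (adjusted p = 0.00249 and 0.00033), and C1s1 also with RLE scaling, without the filter on low counts and with a stricter one (adjusted p from 0.00722 to 0.00963). Fibroblast markers also moved with serum. The 6 genes of that list, with Col1a1 the most abundant, summed to 124, 75.1, 30.1 and 22.5 CPM with 1% FBS, 235, 539, 191 and 150.4 with 5%, 261, 358, 230.4 and 201 with 10% and 519, 454, 546 and 459.7 with 20%. In SPONT, where Col3a1 was the most abundant, the sum was 13.2, 14.6, 15.8 and 12.4 CPM, and with CNTF and 5% FBS it was 20.6, 26.95, 25.5 and 23.6 CPM while C1ra and C1s1 stayed at the levels above; none of the 6 genes was at 0 in these groups.

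Healthy host astrocytes held C1ra at 1.002 CPM at the lowest, 1.68 at the median and 2.16 at the highest of 9 samples and injured ones at 22.1, 24.7, 24.8, 23.6 and 27.8 CPM. C1s1 was 0.660 CPM at the lowest, 1.36 at the median and 2.38 at the highest of 9 samples in healthy host astrocytes and 16.2, 22.8, 16.8, 16.4 and 18.1 CPM after SCI. Neither gene overlapped between the groups. C1ra rose 13.1-fold (log2 fold change 3.71 ± 0.14 (SE), adjusted p = 9.33e-12) and C1s1 11.4-fold (log2 fold change 3.51, adjusted p = 2.54e-09), in 5 of 5 samples.

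Grafts in uninjured cord held C1ra at 36.6, 29.7, 21.3, 39.3 and 21.7 CPM and C1s1 at 15.7, 26.6, 14.2, 24.6 and 23.6 CPM. In SCI at 14 d C1ra was 88.1, 56.4, 70.8, 45.6 and 50.3 CPM and C1s1 136, 92.9, 106, 85.6 and 47.99 CPM, and every SCI library was above every uninjured one for both. C1s1 rose 5.26-fold (log2 fold change 2.40 ± 0.26 (SE), adjusted p = 0.000161) and C1ra by 1.33 on the log2 scale (adjusted p = 0.0025; without replicate 3 of grafts in SCI, adjusted p = 0.0103). The difference of C1ra between SCI and its baseline was smaller in grafts than in host astrocytes (interaction -2.41, adjusted p = 1.41e-07). For C1s1 the interaction was -1.15 (adjusted p = 0.0173) and passed without healthy host replicate 2 (-1.27, adjusted p = 0.00758) or uninjured graft replicate 3 (-1.25, adjusted p = 0.00997).

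The same SCI grafts stood above injured host astrocytes for C1ra by 1.27 and for C1s1 by 2.29 on the log2 scale (adjusted p = 0.00022 and 1.4e-05), with no overlap. Against NPC P15 C1ra was higher by 5.72 and C1s1 by 8.95 (adjusted p = 3.78e-07 and 4.13e-08), in 5 of 5 samples. Grafts at 5 d held C1ra at 31.2, 33.1, 33.5, 20.4 and 32.6 CPM and C1s1 at 41.5, 47.9, 46.3, 18.9 and 38.3 CPM. C1ra was higher at 14 d by 1.21 (adjusted p = 0.00176) and C1s1 by 1.43 (adjusted p = 0.00336), and the C1s1 call was lost without 14 d replicate 1 (adjusted p = 0.011) or 3 (adjusted p = 0.0112). Double crush grafts held C1ra at 188.4, 95.5, 137, 98.9 and 71.8 CPM (log2 fold change 0.87 against SCI, adjusted p = 0.0292) and C1s1 at 169.7, 147, 137, 76.3 and 60.3 CPM, with overlap for both. The fibroblast list summed to 1950.5, 4404, 1693, 4117 and 3081 CPM in uninjured cord, 1522, 1045, 1288, 1676 and 3871 in SCI at 14 d, 27569, 10706, 11621, 11330.0 and 7211 in double crush and 6453, 13757, 17891, 6834 and 5920.3 at 5 d. It was 149 CPM at the lowest, 204 at the median and 253 at the highest of 9 healthy host samples and 791, 1410.0, 874, 1191 and 614 CPM after SCI; all 6 genes were detected in every tissue group, led by Col1a2 in healthy host astrocytes, Col3a1 in uninjured grafts and Col1a1 in the rest. In order of mean level C1ra ran from 118 ± 45.6 CPM (SD, n = 5) in double crush to 0.261 ± 0.268 CPM (SD, n = 4) in ESC with 20 of 22 neighbours overlapping, and C1s1 from 118 ± 47.3 CPM (SD, n = 5) in double crush to 0.244 ± 0.190 CPM (SD, n = 4) in NPC P15 with 18 of 22. The part of fibroblast-like cells in the levels of C1ra, C1s1 and the other members in serum cultures and tissue was not tested.

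**Figure D3:**
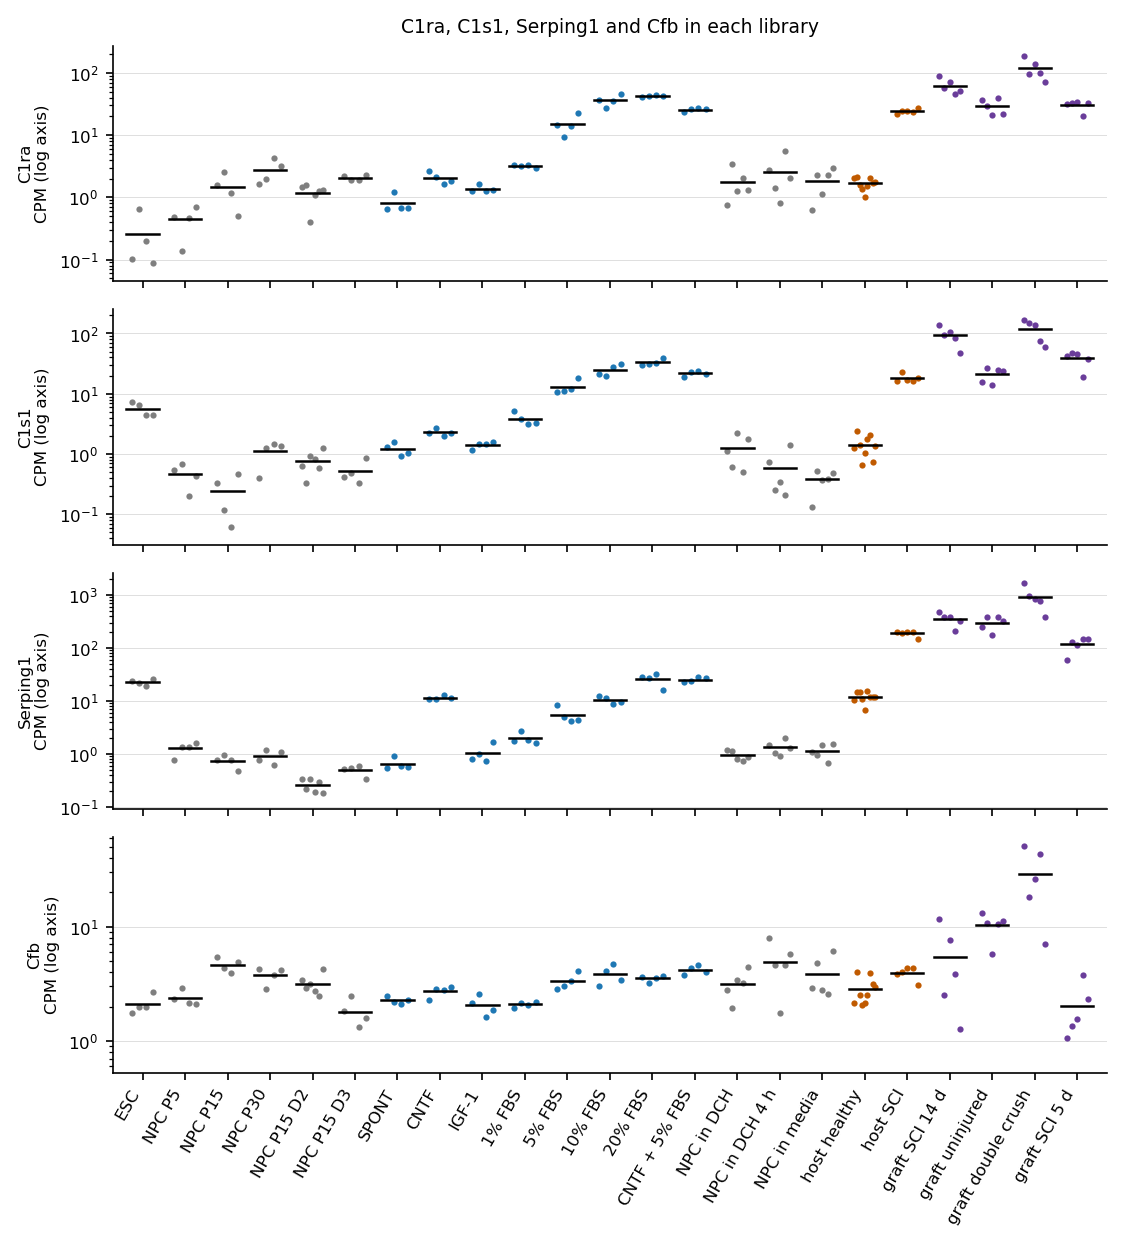
Each point is 1 library, in CPM on a log axis, for C1ra, C1s1, Serping1 and Cfb in 23 groups; bars mark group means, with colours as in the plot of C3, C4b and C1qa. C1ra, C1s1 and Serping1 climbed with FBS and stood high in injured host astrocytes and grafts, while Cfb stayed between 1.06 and 13.1 CPM outside the double crush grafts.

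C4b encodes C4, which C1s cuts to start the enzyme that acts on C3; C4a is a near-identical gene, so part of the reads is uncertain. NPC P15 held C4b at 1.16, 0.465, 0.775 and 1.01 CPM and SPONT at 27.6, 28.3, 19.9 and 16.0 CPM, with no overlap. C4b rose 29.6-fold (log2 fold change 4.89 ± 0.32 (SE), adjusted p = 1.77e-07), in 4 of 4 samples. With CNTF it stood at 159.2, 148, 148 and 148 CPM, above every other culture library, and rose a further 6.63-fold (log2 fold change 2.73 ± 0.18, adjusted p = 1.66e-06).

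C4b had another profile over serum. With 1% FBS C4b was 20.9, 33.8, 24.3 and 16.3 CPM, with 5% 37.9, 30.9, 22.97 and 26.5, with 10% 22.4, 24.99, 20.8 and 19.4 and with 20% 14.9, 13.3, 14.6 and 13.2. The 1% libraries overlapped with SPONT and the 5% libraries with 1% (log2 fold change 0.07 and 0.31 at the first and the next step, adjusted p = 0.868 and 0.282), and all 20% libraries were below all 5% libraries. From 5% to 20% FBS C4b fell by 1.12 on the log2 scale (adjusted p = 0.000189). With CNTF and 5% FBS C4b stood at 100.96, 124, 116 and 109.7 CPM, 1.86 above 5% FBS and -0.53 against CNTF alone (adjusted p = 3.35e-05 and 2.1e-07). With all 23 groups in 1 fit the call against CNTF alone was lost (-0.50, adjusted p = 0.14). The interaction for C4b was -0.89 (adjusted p = 0.00713); its call was lost without SPONT replicate 3 or 4, any CNTF library, 5% FBS replicate 1 or 2, or replicate 1, 3 or 4 of CNTF with 5% FBS (adjusted p from 0.0115 to 0.0208), and with all 23 groups in 1 fit (-0.86, adjusted p = 0.156).

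Healthy host astrocytes held C4b at 169 CPM at the lowest, 209 at the median and 263 at the highest of 9 samples and injured ones at 625, 546, 597, 676 and 621 CPM, with no overlap (log2 fold change 1.32 ± 0.09 (SE), adjusted p = 2.05e-09). Grafts held 429.5, 359, 560.2, 424 and 307 CPM in uninjured cord, 828, 764, 720.0, 438 and 453 in SCI at 14 d, 677, 590.2, 534, 515 and 376 in double crush and 143, 132, 109, 214 and 257 at 5 d. SCI and uninjured grafts overlapped, and their difference of 0.89 just passed (adjusted p = 0.00993); the call was lost without replicate 1, 2 or 3 of grafts in SCI or replicate 1, 2, 4 or 5 of uninjured grafts (adjusted p from 0.0192 to 0.0344), or without the filter on low counts (adjusted p = 0.0113). At 14 d C4b stood above 5 d in 5 of 5 samples (log2 fold change 2.05, adjusted p = 0.000722). Grafts in SCI and injured host astrocytes differed by -0.01 (adjusted p = 0.977), and against NPC P15 the grafts stood higher by 9.86 (adjusted p = 2.54e-09) in 5 of 5 samples. In order of mean level C4b ran from 641 ± 182 CPM (SD, n = 5) in grafts in SCI at 14 d to 0.355 ± 0.0891 CPM (SD, n = 4) in NPC P5; 17 of 22 pairs of neighbours overlapped, and gaps lay below uninjured grafts, CNTF, CNTF with 5% FBS, 10% FBS and 20% FBS.

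C3 encodes the central component on which all routes meet. ESC held C3 at 3.75, 5.05, 5.20 and 4.48 CPM and NPC P15 at 4.15, 5.06, 6.24 and 2.92 CPM, which overlapped, and the 41 ESC and NPC libraries together ran from 1.66 to 14.6 CPM. SPONT held 59.1, 89.2, 34.7 and 31.7 CPM, all above every undifferentiated library. C3 rose 12.8-fold against NPC P15 (log2 fold change 3.68 ± 0.37 (SE), adjusted p = 5.69e-06), in 4 of 4 samples. IGF-1 held 71.8, 68.1, 58.3 and 58.5 CPM, within the SPONT range (log2 fold change 0.30, adjusted p = 0.437). With CNTF C3 stood at 515, 495, 501 and 507 CPM, 9.47-fold above SPONT (log2 fold change 3.24 ± 0.31 (SE), adjusted p = 2.26e-05).

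Across serum C3 was 516, 569, 466 and 266 CPM with 1% FBS, 1909, 1248, 1018 and 1649 with 5%, 2042, 1571, 1563 and 1958 with 10% and 1253, 1020.2, 1181 and 935 with 20%. The steps up to 5% FBS did not overlap, and 20% overlapped with 5%. C3 rose by 3.10 from SPONT to 1% FBS and by 1.67 from 1% to 5% (adjusted p = 0.000248 and 0.000521), and differed by -0.45 from 5% to 20% (adjusted p = 0.0718). In CNTF with 5% FBS C3 stood at 1689.3, 2197, 1926 and 1821 CPM, which overlapped with 5% FBS alone (log2 fold change 0.31, adjusted p = 0.207) and lay above CNTF alone (1.81, adjusted p = 7.33e-14). The interaction was -2.94 ± 0.37 (SE, adjusted p = 1.83e-05): the CNTF difference in C3 was smaller with 5% FBS than without it.

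Healthy host astrocytes held C3 at 531 CPM at the lowest, 666 at the median and 768 at the highest of 9 samples and injured ones at 1138, 1621, 1435, 1895 and 2018 CPM, with no overlap (log2 fold change 1.18 ± 0.13 (SE), adjusted p = 9.46e-07). Grafts in uninjured cord held 1803, 1054, 1388, 992 and 547 CPM and grafts in SCI at 14 d 4573, 4463, 4583, 3202 and 2808 CPM. Every SCI library was above every uninjured one, and C3 rose 4.10-fold (log2 fold change 2.03 ± 0.27 (SE), adjusted p = 0.000705). The interaction of injury and source was 0.82 (adjusted p = 0.034), and it passed without uninjured graft replicate 1 (1.08, adjusted p = 0.00321). Grafts in SCI at 14 d stood above injured host astrocytes in 5 of 5 samples (2.30-fold, adjusted p = 0.00103) and 1059-fold above NPC P15 (10.05, adjusted p = 1.45e-09).

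At 5 d the grafts held C3 at 177, 139, 105.2, 95.3 and 389 CPM, all below the grafts at 14 d. The difference was 24.3-fold (log2 fold change 4.60 ± 0.41 (SE), adjusted p = 0.000112), and at 5.07 on the log2 scale it was larger without 5 d replicate 5. Double crush grafts held 1709, 3329.7, 4033, 1025 and 2583 CPM, which overlapped with SCI (log2 fold change -0.65, adjusted p = 0.252). In order of mean level C3 was highest in grafts in SCI at 14 d (3926 ± 853 CPM (SD, n = 5)) and lowest in NPC P15 D2 (2.30 ± 0.523 CPM (SD, n = 6)), and 17 of the 22 pairs of neighbours in that order overlapped. By FPKM, which allows levels of genes to be compared, grafts in SCI at 14 d held C3 at 763, C1qa at 201, Serping1 at 151, C4b at 112.5, C1qc at 86.8, C1s1 at 29.97, C1qb at 26.004, C1ra at 20.9 and Cfb at 1.91 on average. The FPKM ratio of C3 to C1qa had a median of 17.4 in healthy host astrocytes, 2.61 in injured ones, 4.35 in grafts in SCI at 14 d, 3.07 in uninjured grafts, 0.975 in double crush and 0.183 at 5 d.

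Cfb encodes factor B, the protease of the alternative route. In the 73 culture libraries it lay between 1.33 and 7.94 CPM. In order of mean level over all 23 groups, tissue included, all 22 pairs of neighbours overlapped. NPC P15 held 5.40, 4.34, 3.90 and 4.88 CPM and SPONT 2.47, 2.19, 2.09 and 2.30 CPM, with no overlap, and Cfb fell by 0.90 on the log2 scale (adjusted p = 0.00407). The call was lost without NPC P15 replicate 1 or SPONT replicate 3 or 4 (adjusted p from 0.0118 to 0.0154), and with NPC P15 D3 as the reference the sign turned (0.41, adjusted p = 0.0969). With NPC P15 D2 as the reference it was -0.42 (adjusted p = 0.0375), and with all 23 groups in 1 fit -0.89 (adjusted p = 0.032). Against ESC Cfb in NPC P15 differed by 1.05 (adjusted p = 0.0103) and passed without ESC replicate 4 (1.19, adjusted p = 0.00869) and with DESeq2 (1.01, adjusted p = 0.00238).

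Cfb was 1.95, 2.13, 2.06 and 2.21 CPM with 1% FBS and 2.86, 3.01, 3.38 and 4.07 CPM with 5%, and all 5% libraries were higher (0.67 on the log2 scale, adjusted p = 0.00578); without any 1% FBS library, or 5% FBS replicate 3 or 4, the adjusted p was 0.013 to 0.019. CNTF with 5% FBS stood above CNTF alone by 0.52 (adjusted p = 0.000589) in 4 of 4 samples. With all 23 groups in 1 fit both calls were lost, at 0.66 (adjusted p = 0.247) and 0.55 (adjusted p = 0.256). Injury gave no call in host astrocytes (0.29, adjusted p = 0.197) or grafts (-0.72, adjusted p = 0.409). Double crush grafts held 50.4, 18.1, 26.3, 43.04 and 7.10 CPM beside 11.7, 2.51, 7.65, 3.83 and 1.28 CPM in SCI, with overlap. That difference of 2.36 on the log2 scale did not pass (adjusted p = 0.0191), but did without double crush replicate 5 (adjusted p = 0.00969), with DESeq2 (0.000428) and with all 23 groups in 1 fit (1.39e-08). That fit also called Cfb at 14 d against 5 d (1.54, adjusted p = 0.000123; 1.52 and 0.134 in the fit of its own groups).

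Serping1 encodes C1 inhibitor, which blocks C1r and C1s. ESC held 23.4, 21.8, 19.1 and 26.1 CPM and NPC P15 0.776, 0.955, 0.759 and 0.472 CPM, far apart, and Serping1 fell by 5.00 on the log2 scale (adjusted p = 6.98e-09) in 4 of 4 samples. SPONT held 0.547, 0.917, 0.604 and 0.581 CPM (-0.03, adjusted p = 0.957). With CNTF it reached 11.0, 11.0, 12.97 and 11.2 CPM, all above SPONT, a 17.7-fold rise (log2 fold change 4.15 ± 0.18 (SE), adjusted p = 1.25e-07).

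With serum Serping1 was 1.73, 2.70, 1.84 and 1.58 CPM at 1% FBS, 8.31, 5.06, 4.11 and 4.38 at 5%, 12.2, 11.4, 8.69 and 9.64 at 10% and 28.1, 27.3, 32.8 and 16.1 at 20%. No step tested showed overlap, and it rose by 1.58, 1.48 and 2.21 on the log2 scale from SPONT to 1%, 1% to 5% and 5% to 20% FBS (adjusted p = 0.00228, 0.00118 and 0.000118). The first of these calls was lost without SPONT replicate 3 (adjusted p = 0.0114) or 4 (adjusted p = 0.0102). Serping1 stood at 22.5, 23.5, 28.02 and 27.3 CPM in CNTF with 5% FBS, above both 5% FBS (2.13, adjusted p = 8.78e-05) and CNTF (1.02, adjusted p = 9.84e-10) in 4 of 4 samples. The CNTF difference was smaller with 5% FBS than without it (interaction -2.03, adjusted p = 5.68e-05).

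Host astrocytes held Serping1 at 6.72 CPM at the lowest, 11.9 at the median and 15.6 at the highest of 9 samples when healthy and 203, 189, 199.7, 201 and 146 CPM after SCI. The groups were far apart, and Serping1 rose 13.7-fold (log2 fold change 3.78 ± 0.14 (SE), adjusted p = 7.52e-12). Grafts in uninjured cord held 248, 377, 176.1, 373 and 326 CPM and in SCI at 14 d 465, 377, 384, 210.0 and 318 CPM. These overlapped (0.48, adjusted p = 0.226), and the interaction of injury and source was -3.33 (adjusted p = 3.88e-09). At 5 d the grafts held 58.9, 129, 115, 147 and 149 CPM, all below 14 d (1.71, adjusted p = 0.00145). Grafts in SCI at 14 d stood above injured host astrocytes by 0.85 (adjusted p = 0.00327) in 5 of 5 samples, a call lost without injured host replicate 2 or 5 or graft replicate 1 (adjusted p = 0.0112, 0.0104 and 0.0103).

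Double crush grafts held Serping1 at 1633, 959, 846, 777 and 382 CPM, where 4 of 5 libraries were above every SCI graft. The 2.46-fold difference did not pass (adjusted p = 0.0136), but did without SCI graft replicate 5 (adjusted p = 0.00942) or double crush replicate 5 (adjusted p = 0.00589). It also passed with DESeq2 (adjusted p = 5.25e-05), without the filter on low counts (0.00943) and with all 23 groups in 1 fit (7.37e-07). Against NPC P15 Serping1 in grafts in SCI stood 580.0-fold higher (log2 fold change 9.18, adjusted p = 1.97e-09) in 5 of 5 samples. Its mean level ran from 919 ± 454 CPM (SD, n = 5) in double crush grafts to 0.263 ± 0.0716 CPM (SD, n = 6) in NPC P15 D2, and 18 of 22 pairs of neighbouring groups overlapped.

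Across the 23 group means, which share libraries and depth, members were compared by Pearson r of log2 CPM. C1qa ran with C1qc at 0.999 and with C1qb at 0.994, C1ra with C1s1 at 0.938, and C4b with C3 at 0.879, while C3 and C1qa gave 0.518 and C3 and Cfb 0.389. Serping1 ran with C1s1 at 0.893, with C1qa at 0.867 and with C1ra at 0.820, and C1s1 ran with C3 at 0.818. Among 13124 genes with at least 10 CPM in a group, the genes most like C3 were Slc22a5 (0.967), Dnali1 (0.963) and Abhd14b (0.958), and those most like C4b were Cacna2d3 (0.965), Slc14a1 (0.965) and Pvalb (0.962). For C1qa they were Ctss (0.999), Ly86 (0.996) and Cx3cr1 (0.995), of which Ctss and Cx3cr1 are on the myeloid list. In the genome (GRCm38) C1qb, C1qc and C1qa lie together on chromosome 4 with 3600 and 2979 bases between them, C1ra and C1s1 on chromosome 6 with 6903 bases between, and C4b and Cfb on chromosome 17 with 112471.

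Promoters of RefSeq (GRCm38.p6), 250 bases before to 50 after the start, were at hand for 5 of the 9 members: C1qb, C1qc, C1ra, C1s1 and C3. There was no entry for C1qa, C4b, Cfb or Serping1. Both strands were searched for TTCNNNGAA (STAT), GGG and CC with any 5 bases between (NF-kB), TTGCNNAA (C/EBP), TGANTCA (AP-1) and GAAA and GAAA with any 2 bases between (IRF), which 8.30%, 50.8%, 10.8%, 7.81% and 3.44% of 32851 promoters hold. C3, C1ra and C1s1 are shown because they rose with CNTF or serum; capitals mark matches, and neighbouring or overlapping matches run together. A match is a description, not a site or a cause. The C3 sequence (chr17:57228087-57228386, minus strand) holds 4 NF-kB and 1 C/EBP matches, that of C1ra (chr6:124512371-124512670, plus strand) 1 C/EBP and 1 STAT match, and that of C1s1 (chr6:124542310-124542609, minus strand) 1 C/EBP and 1 NF-kB match in the first of 2 entries.
C3: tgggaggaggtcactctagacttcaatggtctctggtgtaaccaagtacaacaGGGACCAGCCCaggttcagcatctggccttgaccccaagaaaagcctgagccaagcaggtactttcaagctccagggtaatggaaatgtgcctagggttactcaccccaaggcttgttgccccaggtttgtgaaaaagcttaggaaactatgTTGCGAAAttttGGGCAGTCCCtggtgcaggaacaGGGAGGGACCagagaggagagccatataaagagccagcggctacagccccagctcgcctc
C1ra: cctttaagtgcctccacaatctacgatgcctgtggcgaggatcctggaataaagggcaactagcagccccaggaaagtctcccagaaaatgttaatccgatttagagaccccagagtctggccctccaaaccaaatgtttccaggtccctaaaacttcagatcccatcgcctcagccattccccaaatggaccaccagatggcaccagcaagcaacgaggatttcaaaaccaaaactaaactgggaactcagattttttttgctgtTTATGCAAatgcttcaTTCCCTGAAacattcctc
C1s1: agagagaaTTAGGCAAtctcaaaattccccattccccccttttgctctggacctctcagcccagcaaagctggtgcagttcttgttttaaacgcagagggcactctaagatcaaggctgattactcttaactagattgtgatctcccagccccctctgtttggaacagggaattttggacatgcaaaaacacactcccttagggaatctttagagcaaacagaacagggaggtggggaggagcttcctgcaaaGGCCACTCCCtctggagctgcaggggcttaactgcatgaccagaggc

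A wider list of 48 further complement genes, with receptors, regulators and later components, showed the background of the pathway. Of these, 21 had a mean of at least 1 CPM in some culture group and 33 in some tissue group. There were 12 genes below 1 CPM in all cultures and at or above it in tissue: C3ar1, C4a, C5ar1, C5ar2, C6, Cfd, Cfi, Colec11, Cr2, Fcna, Itgax and Masp2. The other 15 were below 1 CPM in all groups. The genes named next are from the up to 3 called genes with the largest change, and the share of the list called in either direction stands beside that of all tested genes. It was below that of all genes for SPONT, for CNTF with 5% FBS against 5% FBS, and for grafts in SCI at 14 d against uninjured grafts, 5 d and injured host astrocytes.

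Against ESC, NPC P15 had 5 higher and 8 lower of 17 tested (76.5% of the list, 67.2% of all genes), with Masp1, a protease of the lectin route, at 13.04 CPM against at most 2 reads in an ESC library (adjusted p = 2.36e-08), Cd93 higher by 7.77, and Itgam, an integrin chain of a C3 fragment receptor, lower at least 25.2-fold from the floor of 3 counts a library. SPONT had 7 higher and 2 lower of 19 (47.4% of the list, 57.2% of all genes), with Csmd1, a membrane inhibitor, at least 233-fold higher, Cd59a, which blocks the membrane attack complex, higher by 8.13 and Clu, which encodes clusterin, by 6.50 on the log2 scale. CNTF against SPONT had 7 higher and 2 lower of 22 (40.9% of the list, 19.9% of all genes), led by Vtn (3.12), Cd59b (2.22) and Cd55 (2.20), genes of fluid and surface regulators. IGF-1 had 2 higher and 1 lower of 22 (13.6% of the list, 6.55% of all genes), Cd59a (1.52), Clu (0.66) and Csmd1 (-0.81). At the lowest, leaving out 1 library left 0 genes called for IGF-1, these 3 among those lost, and the replicate block left 1 gene.

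With 1% FBS 4 of 20 were higher and none lower (20% of the list, 8.78% of all genes), led by Vtn (2.73), C1rl (2.34) and Cd59a (1.48). With 5% against 1% FBS 8 were higher and 1 lower of 22 (40.9% of the list, 31.1% of all genes), led by Colec12 (3.63), Hc, which encodes C5 (2.63), and C1rl (1.37). With 20% against 5% 8 were higher and 5 lower of 24 (54.2% of the list, 26.6% of all genes), with Vtn and Csmd1 at -3.48 and -2.38. CNTF with 5% FBS had 2 higher and 2 lower of 23 against 5% FBS (17.4% of the list, 23.3% of all genes, Cd55 1.27, Susd4 1.05, C1qbp -0.32) and 10 higher and 7 lower of 23 against CNTF (73.9% and 72.8%, Colec12 3.63, C1rl 2.76).

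Host astrocytes after SCI had 20 higher and 0 lower of 33 (60.6% of the list, 41.1% of all genes), led by Itgax (5.94), the C3a receptor gene C3ar1 (4.68) and Cfi (4.66, ranges overlapping). Grafts in SCI against uninjured cord had 1 higher, Cd59a (1.93, adjusted p = 0.00521), and 0 lower of 31 (3.23% of the list, 4.64% of all genes). Double crush against SCI had 6 higher and 0 lower of 34 (17.6% of the list, 1.83% of all genes), among them C6 (3.69) and C2 (3.12, ranges overlapping); no gene of any kind was called in this comparison with the replicate block or at the lowest with 1 library left out, so these 6 calls were then lost. Grafts at 14 d against 5 d had 1 higher, Clu (1.94), of 27 (3.70% of the list, 5.3% of all genes), and grafts against injured host astrocytes 1 lower, Cd59b (-1.85), of 34 (2.94% and 14.6%). Against NPC P15 21 were higher and 1 lower of 27 (81.5% of the list, 52% of all genes), with Itgam at least 755-fold and Csmd1 at least 167.3-fold higher and C3ar1 at 20.9 CPM against at most 2 reads in an NPC library. The interactions had 2 higher and 5 lower of 25 for CNTF with 5% FBS (28% of the list, 22.9% of all genes) and 0 higher and 11 lower of 36 for injury and source (30.6% and 16.8%).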

How the data were processed

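The libraries hold ribosome-bound RNA, pulled down by its HA tag. Reads were trimmed (Trimmomatic) and mapped to mm10 (HISAT2) by the authors, who deposited raw counts per Entrez gene ID from featureCounts. The tables hold 27179 genes in each library. Levels are CPM on the library total. Each comparison was fitted on the libraries of its own groups with edgeR 4.0.16 (R 4.3.3; filterByExpr with at least 10 counts, TMM scaling, the quasi-likelihood test), p-values were adjusted by Benjamini and Hochberg over all genes tested, and a gene was called at an adjusted p below 0.01. Further complement genes are named from the up to 3 called genes with the largest change. Genes most like C3, C4b and C1qa are the 3 with the highest r over group means. The alternatives were RLE scaling, DESeq2 1.42.0, no filter and a stricter filter on low counts, replicate number as a block, all 23 groups in 1 fit, other NPC references, and leaving out each library in turn. Members and lists were chosen with earlier results of these data known. Tables and plots used Python 3.11.15, pandas 2.3.3 and matplotlib 3.10.9.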

Additional observations from a re-analysis of the deposited data

Results flagged for a closer look

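A library of a group of 4 to 9 stood apart in 13 of 137 combinations of a member and a group, for 7 members; chance alone marks about 1 in 20 groups. Replicate 4 of the grafts at 5 d was far above the other 4 libraries for C1qa (3422 CPM), C1qb (575 CPM) and C1qc (2279 CPM), and the lowest for C1ra (20.4 CPM). Replicate 2 of the host astrocytes after SCI was far above its group for C1qb (83.2 CPM) and C1qc (391 CPM), and replicate 5 of the same group was the lowest for Serping1 (146 CPM). Replicate 5 of the grafts in uninjured cord was far above its group for C1qa (380.6 CPM), and replicate 5 of the grafts at 5 d for C3 (389 CPM). In cultures C4b stood apart in CNTF replicate 1 (159.2 CPM) and in NPC in hydrogel replicate 2 (4.49 CPM), C3 after 4 h in hydrogel in replicate 4 (14.6 CPM), and Serping1 in CNTF replicate 3 (12.97 CPM).

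The tested difference between effects passed for 8 member results. CNTF gave a smaller log2 difference with 5% FBS than without it for C4b (-0.89), C3 (-2.94) and Serping1 (-2.03). The log2 difference between SCI and its baseline was smaller in grafts than in host astrocytes for C1qa (-3.81), C1qb (-4.30), C1qc (-4.08), C1ra (-2.41) and Serping1 (-3.33). The baselines differed. On average grafts in uninjured cord, which had been injected, held C1qa at 134.7, C1ra at 29.7 and Serping1 at 300 CPM. Healthy host astrocytes held 6.69, 1.68 and 12.1 CPM. The part of the baseline in these interactions was not tested.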

How the results depend on the processing

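Of 69 member calls, 54 were kept under every alternative tried; over 1183 values 1113 kept direction and call, 69 kept direction without the call and 1 turned, that of Cfb in SPONT against NPC P15 (0.41 with NPC P15 D3 as the reference). Leaving out 1 library at a time ended 51 of 738 calls. The number of members called moved by over 1.5 times in 21 of 282 counts. With DESeq2 it was 1 for IGF-1 against SPONT (0 with edgeR), 4 for CNTF with 5% FBS against 5% FBS (2) and 3 for double crush against SCI grafts (0). With all 23 groups in 1 fit it was 3 for CNTF against SPONT (5), 5 for double crush (0) and 8 for 14 d against 5 d (5), and without a filter on low counts 1 for double crush. With replicate number as a block it was 2 for SPONT against NPC P15 (4), 3 for 14 d against 5 d (5) and 2 for SCI grafts against injured host astrocytes (4). It ended 8 calls: C1s1 and Cfb in SPONT, Cfb in 5% FBS, C4b in SCI against uninjured grafts, C1s1 and Serping1 at 14 d against 5 d, and C3 and Serping1 against injured host astrocytes. Replicates of like number correlated at -0.195 to 0.27 between groups. With so few pairs, and labels that do not say whether numbers mark pairs, this cannot settle whether the block is warranted. Leaving out 1 library gave 2 to 4 members for SPONT against NPC P15, 3 to 5 for CNTF, 0 to 2 for IGF-1, 2 to 4 for CNTF with 5% FBS against 5% FBS, 2 to 4 for SCI against uninjured grafts and 0 to 3 for double crush; the cause was not tested. Genes called among all tested genes moved by over 1.5 times as well. With all 23 groups in 1 fit they went from 2961 to 1143 for CNTF, 979 to 399 for IGF-1, 1312 to 572, 4730 to 2087 and 4074 to 1349 for the steps to 1%, 5% and 20% FBS, 3564 to 419 and 11072 to 5040 for CNTF with 5% FBS against serum and against CNTF, and 3600 to 718 for their interaction; in tissue from 734 to 4956 for SCI against uninjured grafts, 289 to 4205 for double crush, 811 to 4263 for 14 d against 5 d, 2425 to 4970 for SCI grafts against injured host astrocytes and 2947 to 4750 for injury and source. DESeq2 gave 3571 for IGF-1, 2470 for 1% FBS, 2028, 1344, 1850 and 3981 for the first 4 of these tissue comparisons, and the block 1 for IGF-1, 833 for 1% FBS, 4221 for host astrocytes after SCI (6933), 0 for double crush, 269 for 14 d against 5 d, 1177 against injured host astrocytes and 1695 for injury and source; no filter gave 440 for double crush. With TMM scaling 17 of 207 group means moved by 1 SD or more. The 11 libraries with 1 read data set held the lowest total counts, so low members such as C1qb may have been least precise there.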

Other observations

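Undifferentiated cultures outside the main comparisons held low levels of C3 and C4b. C3 was 4.38 ± 0.371 CPM (SD, n = 4) in NPC P5, 6.32 ± 1.74 CPM (SD, n = 4) in NPC P30 and 4.54 ± 0.973 CPM (SD, n = 4) in NPC P15 D3. In NPC pipetted in hydrogel it was 7.04 ± 0.628 CPM (SD, n = 5), after 4 h in hydrogel 8.24 ± 3.67 CPM (SD, n = 5) and in media 4.62 ± 0.151 CPM (SD, n = 5). C4b, in the same order, was 0.355 ± 0.0891 CPM (SD, n = 4), 3.05 ± 1.71 CPM (SD, n = 4), 1.08 ± 0.340 CPM (SD, n = 4), 2.79 ± 0.991 CPM (SD, n = 5), 2.56 ± 1.304 CPM (SD, n = 5) and 1.78 ± 0.716 CPM (SD, n = 5). Every one of these libraries was below every SPONT library for both genes. Of these groups only NPC P15 D3 was tested against SPONT, as another reference, and the calls of C3 and C4b held there. NPC P15 D3 and NPC pipetted in hydrogel also served as other references for grafts in SCI at 14 d. The remaining differences were not tested.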
